A study of Mus musculus with 8 samples.

Results

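Solute carriers are membrane proteins that move amino acids, sugars, ions, metals, nucleotides and many other small molecules across the plasma membrane and the membranes of organelles. Their genes carry the symbol Slc and a family number, and a family usually shares a fold and a class of substrate. In macrophages they feed glycolysis, export lactate, import glutamine, arginine and essential amino acids, and handle zinc and iron. N6-methyladenosine (m6A) is a methylated form of adenosine, common in messenger RNA, that is typically found in long exons, near stop codons and in 3′ untranslated regions (3′ UTRs), and that is read by proteins acting on RNA stability and translation.

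Peaks of m6A were mapped in RAW264.7, a mouse macrophage line, left untreated (control) or given the compounds TBP, TCP or TIP, each at 100 µM for 24 h, by sequencing RNA bound by an anti-m6A antibody. The labels do not spell out the compound names. Of 8 samples, 4 were immunoprecipitated and 4 were RNA inputs, with 1 of each per condition, and the peak lists of the 4 immunoprecipitated libraries were used. With 1 library per condition there was no replicate check and no test between conditions was possible, so differences are given as counts, with exact 95% Clopper-Pearson intervals that cover counting error only.

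A gene was counted as a solute carrier if its symbol began with Slc and a digit and if it held at least 1 peak on its own strand in any list. A symbol set aside beforehand was not counted and is not reported here. The rule gave 78 genes among the 4309 with a peak, and 403 of all 20732 peaks. All 78 enter every count, and some are not named; no filter on low values was applied. One of them, Slc7a6os, meets the symbol rule but is a separate gene next to Slc7a6 on the opposite strand and is not itself a transporter. The lists held 4432 peaks in control, 6285 with TBP, 6981 with TCP and 3034 with TIP. They give no read counts, so the depth of each library is unknown, and a gene without a peak is one where none was called, not one shown to lack the mark. Transcript levels were not available beside the peaks, and in lysates of whole cultures fewer cells with a transcript and less of it per cell cannot be told apart. Of 15 macrophage markers, 12 held a peak, including Csf1r, Cd68 and Spi1, while 0 of 24 markers of T cells, B cells, epithelial cells, fibroblasts and endothelial cells did. The markers numbered 10 in control, 12 with TBP, 9 with TCP and 7 with TIP.

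Solute carrier genes with a peak numbered 52 in control, 61 with TBP, 67 with TCP and 41 with TIP. They made up 2.1% (interval 1.57 to 2.74) of the genes with a peak in control, 1.95% (1.5 to 2.5) with TBP, 1.97% (1.53 to 2.5) with TCP and 2.29% (1.65 to 3.09) with TIP, and these intervals overlap. The order of the counts is that of the list lengths. When the 3034 best-scored peaks of each list were compared, the numbers became 43 in control, 43 with TBP, 36 with TCP and 41 with TIP, so the higher counts with TBP and TCP were not seen at equal list length. Of 374 protein-coding genes annotated with an Slc symbol, without the symbol set aside, 20.9% held a peak, against 19.3% of all 21900 protein-coding genes.

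Peaks in these genes numbered 101 in control, 112 with TBP, 127 with TCP and 63 with TIP. Relative to control the number was 1.11 times as high with TBP, 1.257 times with TCP and 0.624 times with TIP, while all peaks changed by 1.42, 1.58 and 0.685 times. A marked solute carrier gene held 1.94 peaks on average in control, 1.84 with TBP, 1.90 with TCP and 1.54 with TIP, and the corresponding means over all genes were 1.76, 1.98, 2.03 and 1.67. The median was 1 peak per gene in every list, and the highest was 7 in control, 7 with TBP, 9 with TCP and 5 with TIP. A solute carrier peak was 50 bp wide at the median in each list, with a lowest width of 25 bp and a highest of 225 bp, seen with TBP.

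**Figure D1:**
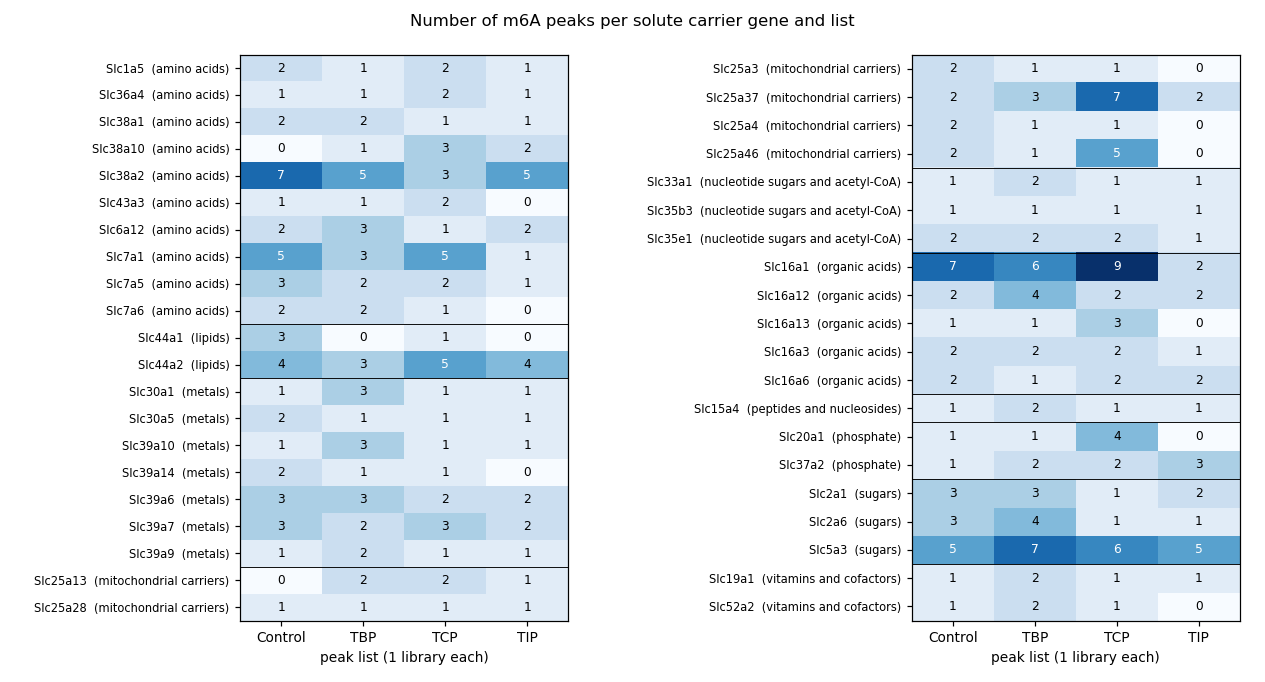
Number of peaks in each of the 41 solute carrier genes with at least 4 peaks summed over the lists (rows, grouped by substrate) in each peak list (columns, 1 library each), with darker blue for more peaks. Slc16a1 with 9 peaks under TCP holds the highest count, and Slc5a3 and Slc38a2 stand out in their groups in control, TBP and TIP.

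The site of the mark within the transcript was alike in the 4 lists. Peaks annotated to the 3′ UTR made up 64.4% (54.2 to 73.6) of solute carrier peaks in control, 63.4% (53.8 to 72.3) with TBP, 62.2% (53.2 to 70.7) with TCP and 65.1% (52.0 to 76.7) with TIP. Over all peaks of the same lists the shares were 50.9%, 50.7%, 48.5% and 48.8%, below the interval of the solute carriers in each list. Under some of the alternatives given at the end, this was not so for control, TBP or TCP. Peaks of 1 gene are not independent, so the share was also taken per gene. A 3′ UTR peak was present in 62 of the 78 genes, or 79.5% (68.8 to 87.8), against 69.2% of all genes with a peak. The mean over genes of each gene's own 3′ UTR share was 68.3% for solute carriers and 55.9% for all genes. Within single lists the per-gene intervals included the share of all genes in control (73.1%, 59.0 to 84.4, against 64.4%), with TBP (75.4%, 62.7 to 85.5, against 67.3%) and with TIP (70.7%, 54.5 to 83.9, against 61.5%). With TCP the share was 79.1% (67.4 to 88.1), against 65.2%.

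Of the 128 solute carrier peaks in exons outside the UTRs, 61 (47.7%, 38.8 to 56.7) lay in the last exon, against 32.1% of all such peaks. Another 59 lay in internal exons and 8 in first exons. Slc5a3 alone supplied 23 of the 61 peaks in last exons. Peaks of 1 gene are not independent, and no share per gene was taken here. By gene, 42 had peaks in the 3′ UTR only, 11 in exons only and 3 in the 5′ UTR only. Genes marked in the 5′ UTR only included Slc45a4, of a sugar transporter family, and Slc3a2, the heavy chain that carries amino acid exchangers to the cell surface. Slc45a4 held 1 peak in control, at chromosome 15, 73605937 to 73605961 (GRCm38, used throughout), 1 with TBP and 1 with TIP, and Slc3a2 held 1 with TCP alone. Only 2 genes had peaks of all 3 classes: Slc38a2 and Slc39a7. Overlapping peaks of the 4 lists were merged into 212 sites, each of which counts as called in every list that has a peak in it. Of these, 4 were given 2 different classes in different lists, in Slc25a13, Slc39a7, Slc52a2 and Slc7a1.

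**Figure D2:**
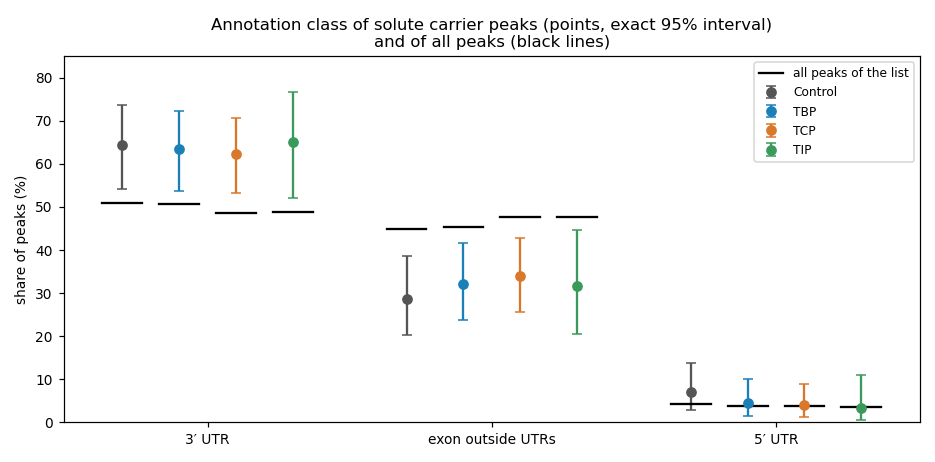
Share of solute carrier peaks in the 3′ UTR, in exons outside UTRs and in the 5′ UTR (points with exact 95% intervals; counting error only) in each list, beside the share over all peaks of that list (black lines). In every list the 3′ UTR point lies above its line, from 62.2% with TCP to 65.1% with TIP.

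Genes of families assigned to amino acids by family number were the largest substrate group, with 14 marked genes and 91 peaks. Of these peaks 81.3% lay in 3′ UTRs. The genes numbered 11 in control, 11 with TBP, 14 with TCP and 9 with TIP. Slc7a6os, which the family number puts in the group, is left out of these counts. The substrates of the other members were not checked gene by gene. Mitochondrial carriers came next, with 13 marked genes. Slc38a2 (SNAT2), which takes up small neutral amino acids together with sodium and is known to be induced by amino acid starvation, held 7 peaks in control, 5 with TBP, 3 with TCP and 5 with TIP. Its 3′ UTR on chromosome 15 carried peaks between 96687942 and 96689991, but none of its sites was called in all 4 lists. The best-ranked peak lay at 96688292 to 96688391 and ranked 107 of 4432 by score in control. The score orders peaks within a list and cannot be compared between lists, where its scale is not stated. No TCP peak overlapped it, and the best rank of Slc38a2 with TCP was 4645 of 6981.

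Slc7a1 (CAT1), a carrier of arginine and lysine, held 5 peaks in control, 3 with TBP, 5 with TCP and 1 with TIP. They covered 1 kb at the end of the gene on chromosome 5. The single TIP peak lay at the far 3′ site, 148331510 to 148331584, which control and TCP also held and TBP did not. Slc7a5 (LAT1), the exchanger that imports leucine and other large neutral amino acids, held 3 peaks in control, 2 with TBP, 2 with TCP and 1 with TIP. Its 3′ UTR peak on chromosome 8, 121882400 to 121882574 in control, was called in all 4 lists. It ranked 185 of 4432 in control, 245 of 6285 with TBP, 236 of 6981 with TCP and 17 of 3034 with TIP. In TIP 301 peaks were tied at rank 17. A second 3′ UTR site of Slc7a5, at 121882775 to 121882924, was present in control and TBP only.

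Slc1a5 (ASCT2), a neutral amino acid exchanger used for glutamine uptake, held 2 peaks in control, 1 with TBP, 2 with TCP and 1 with TIP. Its 3′ UTR peak ranked 62 of 6285 with TBP, at chromosome 7, 16797677 to 16797801, and 88 of 6981 with TCP. In control the 3′ UTR peak was 25 bp wide, at 16797802 to 16797826, and ranked 510; it overlapped the TIP peak and abutted the other 2. A 5′ UTR peak at 16781740 to 16781839 in control recurred with TCP alone. Slc6a12, a carrier of betaine, held 2 control peaks, 3 with TBP, 1 with TCP and 2 with TIP, all in the 3′ UTR. Its site at chromosome 6, 121365274 to 121365398, was called in all 4 lists, and the neighbouring one at 121365474 to 121365673 in all but TCP. Slc38a1 and Slc36a4 also held a peak in each list.

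Mitochondrial carriers of the Slc25 family held a peak in 13 of 47 annotated genes: 8 in control, 11 with TBP, 11 with TCP and 5 with TIP. Their peaks numbered 12, 14, 22 and 6, and 74.1% were in 3′ UTRs. The mitoferrins Slc25a37 and Slc25a28, which carry iron into the mitochondrion, were the only 2 family members called in all 4 lists. Slc25a37 held 2 peaks in control, 3 with TBP, 7 with TCP and 2 with TIP. Both of its control sites, at chromosome 14, 69244848 to 69244897 and 69249024 to 69249098, were called in all 4 lists. The 7 TCP peaks include 3 of 25 bp between 69248949 and 69249073, at and beside the second of these sites, where each other list has 1 wider peak. Slc25a28 held 1 peak in each list, ranked 1149 of 4432 in control, 1170 of 6285 with TBP, 1225 of 6981 with TCP and 1373 of 3034 with TIP.

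Of the 8 Slc25 genes marked in control, 6 had no TIP peak (75.0%, 34.9 to 96.8), against 14 of the 44 other solute carrier genes (31.8%). These 6 were Slc25a3, the phosphate carrier, Slc25a4, the main ADP/ATP exchanger of muscle and heart, Slc25a30, Slc25a32, Slc25a33 and Slc25a46, an outer membrane protein of the family. This contrast was chosen after its values were seen, the counts are small, and the interval includes the share of all genes without a TIP peak. Slc25a46 held 2 peaks in control, 1 with TBP, 5 with TCP and 0 with TIP, and its best control peak ranked 669. Slc25a4 held 2, 1, 1 and 0, and Slc25a3 held 2, 1, 1 and 0. The other 3 had a single control peak each.

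Monocarboxylate transporters (Slc16) held a peak in 6 of 14 annotated genes, and 33 of their 54 peaks lay in exons outside the UTRs, with 38.9% in 3′ UTRs. Slc16a1 (MCT1), a proton-coupled carrier of lactate and pyruvate, held 7 peaks in control, 6 with TBP, 9 with TCP and 2 with TIP. Its sum of 24 over the lists was the highest of the solute carriers, beside 23 for Slc5a3, or 34 for Slc5a3 with the peaks it shares with Mrps6. A cluster in exon 4 of 5, on chromosome 3 between 104652752 and 104653551, took 5 control, 3 TBP, 4 TCP and 2 TIP peaks. The site from 104653077 to 104653176 was shared by control, TCP and TIP, ranked 163 of 6981 with TCP, and was not called with TBP. Exon 5 and the 3′ UTR of Slc16a1 were marked in control, TBP and TCP, and held no TIP peak. No site of Slc16a1 was called in all 4 lists.

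Slc16a3 (MCT4), the lactate exporter of glycolytic cells, held 2 control peaks, 2 with TBP, 2 with TCP and 1 with TIP. Its 3′ UTR site, at chromosome 11, 120958126 to 120958200 with TBP and TCP, was found in every list. At least 1 peak of Slc16a3 overlaps Csnk1d on the other strand. Slc16a6 held 2, 1, 2 and 2 peaks and shared an exon 5 site at chromosome 11, 109455423 to 109455547, among all lists. Slc16a12 held 2 peaks in control, 4 with TBP, 2 with TCP and 2 with TIP. Its 3′ UTR site at chromosome 19, 34670053 to 34670227, was common to all lists, while the exon 5 site at 34675056 to 34675130 was called with the 3 compounds and not in control. Slc16a13 held 1, 1, 3 and 0 peaks, and Slc16a10 had 1 peak with TCP alone.

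Zinc transporters were marked in 4 of 10 annotated genes of the exporter family Slc30 and 5 of 14 of the importer family Slc39. All 14 Slc30 peaks lay in 3′ UTRs, whereas 11 of 35 Slc39 peaks (31.4%) did. Slc39a6 (ZIP6) held 3 peaks in control, 3 with TBP, 2 with TCP and 2 with TIP, and all 10 lay in exon 2 of 10. Slc39a10 (ZIP10) held 1, 3, 1 and 1 peaks, all in exons. Its exon 2 site on chromosome 1, 46835844 to 46835868 in control, overlapped the TCP and TIP peaks there. Slc39a7 (ZIP7), which releases zinc from the endoplasmic reticulum, held 3, 2, 3 and 2 peaks. The exporter Slc30a1 held 1 peak in control, 3 with TBP, 1 with TCP and 1 with TIP, and its peak at chromosome 1, 191909754 to 191909828, had the same borders in all 4 lists. Slc30a5 was called in each list at neighbouring positions on chromosome 13, without a common site, and its TIP peak at 100803073 to 100803197 was among the 301 tied at rank 17. Of 7 zinc transporter genes marked in control, 1 had no TIP peak (14.3%, 0.361 to 57.9), an interval that includes the 40.9% of all genes: Slc39a14 (ZIP14), with 2, 1, 1 and 0 peaks.

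**Figure D3:**
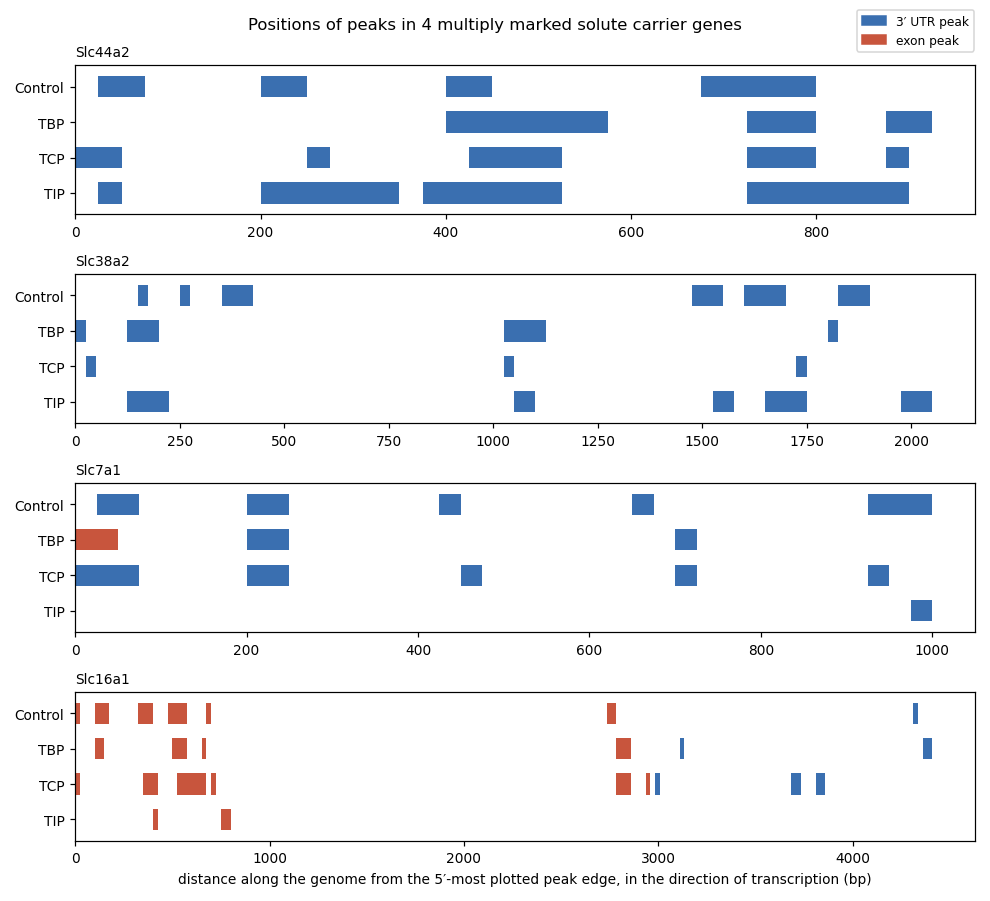
Positions of peaks in Slc44a2, Slc38a2, Slc7a1 and Slc16a1 in each list; the x axis is the distance in bp from the 5′-most plotted edge in the direction of transcription, bars span the peaks, blue is 3′ UTR and red is exon, and an exon peak (TBP) and a 5′ UTR peak (control) of Slc38a2 far upstream are not drawn. Slc44a2 peaks line up between lists, whereas those of the other 3 genes have no site common to all 4, and TIP has 1 peak in Slc7a1 and 2 in Slc16a1.

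Among sugar transporters, Slc5a3, the sodium-coupled importer of myo-inositol, held 5 peaks in control, 7 with TBP, 6 with TCP and 5 with TIP. All 23 lay in exon 2 of 2 on chromosome 16, and it was among the 5 best-ranked solute carriers of the control, TBP and TCP lists. With TIP it shared the best rank of any solute carrier, 17, with Slc1a5, Slc30a5, Slc44a2, Slc6a12 and Slc7a5. Its peak at 92078115 to 92078289 ranked 61 of 4432 in control and 49 of 6285 with TBP, overlapped a TIP peak of rank 318, and had no counterpart with TCP. Sites at 92078740 to 92078864 and 92078965 to 92079189 were called in all 4 lists. A further 11 peaks on the same strand (2 in control, 2 with TBP, 4 with TCP and 3 with TIP) lie inside the annotated span of Slc5a3 and were placed in Mrps6, which shares that stretch, and the 2 genes cannot be told apart there. With them the numbers would be 7, 9, 10 and 8.

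Slc2a1 (GLUT1), the main glucose importer of activated macrophages, held 3 peaks in control, 3 with TBP, 1 with TCP and 2 with TIP, all in the 3′ UTR on chromosome 4. Its peak at 119137103 to 119137152 ranked 269 in control, and the sole TCP peak lay at the first of its 3 sites, which TIP lacked, so that no site was shared by all lists. Slc2a6, a further member of the glucose transporter family, held 3, 4, 1 and 1 peaks, and its site at chromosome 2, 27021488 to 27021662, was called in every list. Slc50a1 held 1 peak in control, TBP and TCP and none with TIP.

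Among lipid and other carriers, the choline transporter-like gene Slc44a2 held 4 peaks in control, 3 with TBP, 5 with TCP and 4 with TIP. All 16 lay in the 3′ UTR on chromosome 9 between 21353702 and 21354626, and 2 of its 4 sites were called in every list. Its peak at 21354427 to 21354501 ranked 91 of 6285 with TBP and 329 of 6981 with TCP. Its relative Slc44a1 held 3 peaks in control, 0 with TBP, 1 with TCP and 0 with TIP, and the best-ranked control peak lay at chromosome 4, 53567577 to 53567626. Slc37a2, a sugar phosphate exchanger of the endoplasmic reticulum, held 1, 2, 2 and 3 peaks, and was the only solute carrier called in all 4 lists whose number was highest with TIP alone. Slc20a1 (PiT1), a sodium-coupled phosphate importer, held 1, 1, 4 and 0 peaks. Slc15a4, a lysosomal carrier of histidine and peptides, and Slc19a1, the reduced folate carrier, each held 1 peak in control, 2 with TBP, 1 with TCP and 1 with TIP.

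The Slc35 family, placed under nucleotide sugars by its number, held a peak in 9 of 27 annotated genes. The substrates of its members were not checked gene by gene. Slc35e1 led the family with 2 peaks in control, 2 with TBP, 2 with TCP and 1 with TIP, all in the 3′ UTR on chromosome 8 between 72483466 and 72483740. Slc35b3 held 1 peak in each list, whereas the other 7 were called in 3 lists or fewer. Slc35b4 had 3 peaks, all with TCP, and Slc35b1 had 1, with TIP. Slc33a1, the acetyl-CoA carrier of the endoplasmic reticulum, held 1 control peak, 2 with TBP, 1 with TCP and 1 with TIP. At least 1 of these overlaps Gmps on the other strand.

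**Figure D4:**
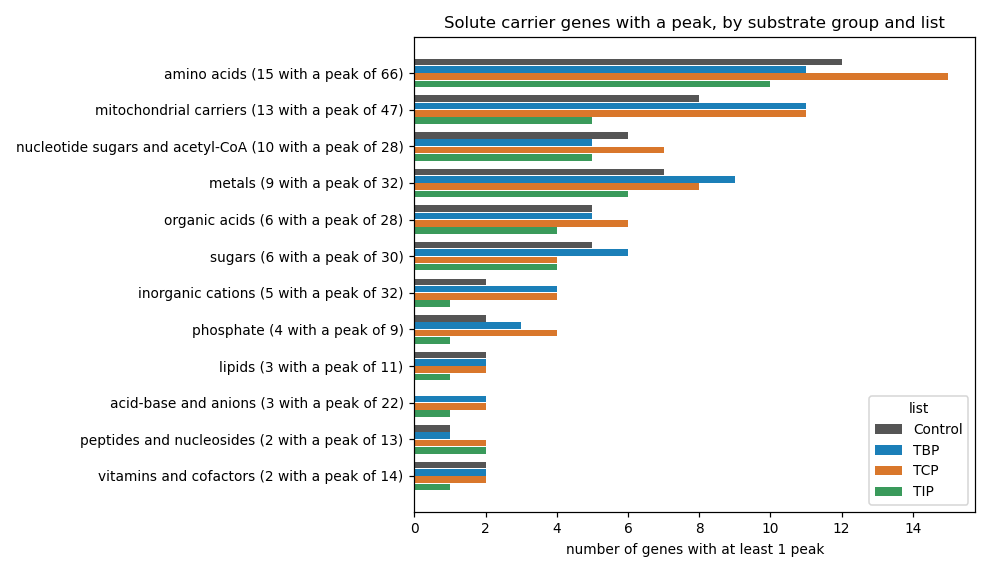
Number of solute carrier genes with at least 1 peak (x axis) by substrate group (rows, with the number marked in any list of those annotated) and list (colours; 1 library each). The amino acid group, drawn with Slc7a6os, ranges from 10 genes with TIP to 15 with TCP, and mitochondrial carriers range from 5 with TIP to 11 with TBP and TCP, where TBP ties with the amino acid group.

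The design compares each compound with the same control library, so the 3 comparisons share that library. With TBP, 16 of the 26 solute carrier genes without a control peak had one (61.5%, 40.6 to 79.8), and the share over all genes without a control peak was 58.8%. Of the 52 genes with a control peak, 7 had none with TBP (13.5%, 5.59 to 25.8), against 17.2% of all genes. With TCP, 20 of 26 were gained (76.9%, 56.4 to 91.0), against 71.9%, and 5 of 52 were lost (9.62%, 3.20 to 21.0), against 16% over all genes. With TIP, 9 of 26 were gained (34.6%, 17.2 to 55.7), against 18%, and 20 of 52 were lost (38.5%, 25.3 to 53.0), against 40.9%. All 6 intervals include the share of all genes. Counted over the 3034 best-scored peaks per list, gains and losses were 9 and 9 with TBP. They were 7 and 14 with TCP, and 11 and 13 with TIP. The excess of gains over losses with TCP was thus not kept. No share over all genes was taken at equal list length, so these counts cannot be set against all genes.

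The best-ranked peak among genes gained with TBP belonged to Slc25a13, a mitochondrial aspartate/glutamate exchanger, at chromosome 6, 6042193 to 6042217, with rank 1314 of 6285. It was followed by Slc36a1, a lysosomal proton-coupled amino acid carrier, at rank 1470, and Slc27a1, a fatty acid importer, at rank 2299 on chromosome 8, 71586118 to 71586192. Slc26a10, which overlaps B4galnt1, and Slc35c2 tied at rank 2528. With TCP Slc25a13 came first again, at 6042118 to 6042267 with rank 835 of 6981. Slc29a1 (ENT1), a nucleoside transporter, followed at chromosome 17, 45585500 to 45585574, and then Slc35c2 and Slc26a10. With TIP Slc29a1 ranked first among gained genes, at 45585500 to 45585599 with rank 578 of 3034, before Slc25a15, the ornithine carrier, Slc35b1, Slc36a1 and Slc25a13.

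The best-ranked control peaks without a counterpart in the gene under TBP were those of Slc44a1, Slc35g1, Slc6a6, the taurine importer, Slc25a33 and Slc35e4. All 5 genes lost with TCP are Slc35g1, Slc35d1, Slc24a5, Slc25a33 and Slc45a4. The best-ranked ones lost with TIP were Slc25a46, Slc44a1, Slc39a14, and Slc52a2, a riboflavin transporter. The best control peaks of the 20 genes lost with TIP ranked between 669, in Slc25a46, and 3772 of 4432, in Slc25a30 and Slc43a2. Slc24a5 is overlapped by Myef2, which lies on the other strand.

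**Figure D5:**
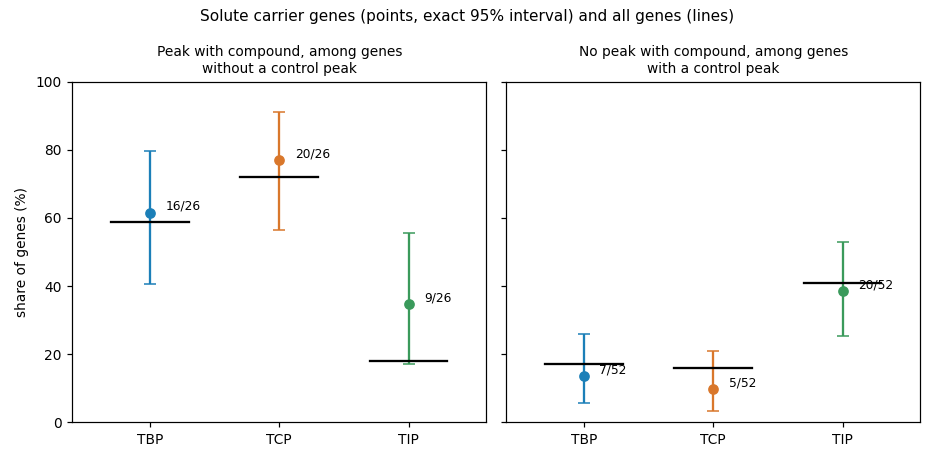
Share of solute carrier genes with a peak under each compound among the 26 without a control peak (left) and share with none among the 52 with a control peak (right), as points with exact 95% intervals (counting error only) beside the share over all genes (black lines). TIP has the lowest share gained, 9 of 26, and the highest share lost, 20 of 52, and all 6 intervals include their line.

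Peaks in 29 genes were called in all 4 lists, or 37.2% (26.5 to 48.9) of the solute carriers, against 29.8% of all genes with a peak. Of the 52 control genes these are 55.8% (41.3 to 69.5), against 51.9% over all genes. Another 13 genes were called in control, TBP and TCP but not with TIP, or 16.7% (9.18 to 26.8), against 12.9% over all genes. With every compound but not in control, 4 of 26 genes were called (15.4%, 4.36 to 34.9), against 8.35% of all genes. They were Slc25a13, Slc35c2, Slc36a1 and Slc38a10. Slc25a13 held 0, 2, 2 and 1 peaks, Slc38a10 held 0, 1, 3 and 2, and Slc35c2 and Slc36a1 each held 1 with every compound. The Slc35c2 peaks lay within chromosome 2, 165276804 to 165276903, and those of Slc36a1 within chromosome 11, 55233655 to 55233754, and in both genes all 3 overlapped. Those of Slc38a10 lay on chromosome 11 between 120104935 and 120110152. Under control alone were 2 of 52 genes (3.85%, 0.469 to 13.2), against 6.46% of all genes: Slc25a33, a pyrimidine nucleotide carrier of mitochondria, at chromosome 4, 149744636 to 149744660, with rank 2938 of 4432, and Slc35g1, at chromosome 19, 38402969 to 38403043, with rank 1698.

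Recurrence was lower for peaks than for genes, which follows in part from the counting, since a gene can recur without a shared site. Of the peaks in solute carriers, 61 of 112 with TBP (54.5%) overlapped no control peak, against 60% of all TBP peaks. With TCP these were 77 of 127 (60.6%), against 64.6%, and with TIP 27 of 63 (42.9%), against 48.2%. In the other direction, 50 of 101 control peaks (49.5%) overlapped no TBP peak, against 42.7% of all control peaks, and 50 (49.5%) overlapped no TCP peak, against 44.3%. For TIP it was 65 (64.4%), against 64.7%. Of the 212 sites 119 (56.1%) were called in 1 list, 32 in 2, 38 in 3 (17.9%, 13 to 23.8) and 23 in all 4 (10.8%, 7.0 to 15.8). Over all genes the shares were 60.6% for 1 list, 11.1% for 3 and 10.6% for 4. Of the sites seen in 1 list, 50 came from TCP, 30 from control, 29 from TBP and 10 from TIP. The lists differ in length, and the same split over all sites was not taken, so these counts cannot be set against all genes. Of the 29 genes called in all lists, 20 shared a site in all 4, and the other 9 did not. Neighbouring peaks in the same gene and list were 225 bp apart at the median of 182 gaps, and 50 gaps (27.5%) were of at most 100 bp.

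Dose and time were matched between the 3 compounds, which were compared in 3 pairs over the same genes, with normal-approximation intervals for paired shares, which cover counting error only. The difference in structure between them is not stated in the labels. Of the 52 control genes, TBP kept 45, TCP 47 and TIP 32. TCP kept 3.85 percentage points more than TBP (−6.76 to 14.5), and the pair differed on 8 genes, 3 kept by TBP alone and 5 by TCP alone. TIP kept fewer than TBP, by −25.0 points (−37.9 to −12.1), and fewer than TCP, by −28.8 points (−43.3 to −14.4). Over all genes the corresponding differences were 1.21, −23.7 and −24.9 points. Among the 26 genes without a control peak, TCP exceeded TBP by 15.4 points (−12.2 to 43.0), and TIP was below TBP by −26.9 points (−52.1 to −1.79) and below TCP by −42.3 points (−68.8 to −15.8). Over all genes these were 13.2, −40.8 and −54.0 points. At equal list length the order of genes gained was reversed: 11 with TIP, 9 with TBP and 7 with TCP. Genes lost were then 13 with TIP, 9 with TBP and 14 with TCP, so only the order of TIP and TBP was kept. Shares over all genes were not taken at equal list length. Each difference in the full lists follows their length, and list length and compound cannot be told apart with 1 library each.

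Genes of 2 further classes, chosen by symbol, were set beside the solute carriers. Marked genes with an ABC transporter symbol numbered 11, with 5 in control, 5 with TBP, 11 with TCP and 5 with TIP. They include Abce1, Abcf1, Abcf2 and Abcf3, which are not membrane transporters. Of the 33 peaks in the 11 genes, 63.6% (45.1 to 79.6) lay in 3′ UTRs. P-type and V-type ATPases, the ion and proton pumps, were marked in 16 genes, and 71.0% (58.1 to 81.8) of their 62 peaks did. Both intervals include the 63.5% (58.6 to 68.2) of the solute carriers, so that their 3′ UTR share was not set apart from these 2 classes. The ABC share without the genes that are not transporters was not taken. Of the 403 solute carrier peaks, 95 (23.6%) have another gene in the lists' nearest-gene column, against 23.0% of the 20443 peaks placed in a gene. In 7 of the 78 genes, which hold 49 peaks together, at least 1 peak overlaps a second gene.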

How the data were processed

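Peak lists of 4 immunoprecipitated libraries were used; the 4 inputs were not analysed here. HISAT2 2.1.0, Trim Galore 0.6.5, ChIPseeker 1.26, HOMER 4.11 and the build GRCm38 (mm10) are named, without roles, per the submitters' processing notes; of the peak caller, its threshold and any input correction the sources used here say nothing. Per the file headers, the authors deposited a position, a strand, an annotation class, the nearest gene and a score per peak. The score has no stated scale and was used only to rank peaks within a list.

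Each peak was given to the gene of its exon annotation, else to the nearest gene if that held it on its strand, else to a single RefSeq gene over it. Genes with a peak under a compound but not in control were called gained, and those with the opposite pattern lost. Overlaps needed at least 1 bp on the same strand (bedtools 2.31.1). Counts of genes, of gained and lost genes, of peaks without overlap and of sites were tested on simulated lists. The placement of peaks in genes and the other steps were not. Shares have Clopper-Pearson intervals (scipy 1.17.1). Members, gene lists and substrate groups were chosen with earlier results of these data known. Positions and ranks are given for the genes with most peaks in all lists, in control alone or in all compounds, best ranked, or leading a family, and, chosen after their values were seen, for a few more. Alternatives were equal list lengths, peaks above the median score, the nearest gene, no peaks over 500 bp, 50% overlap, RefSeq spans and peaks within 100 bp merged. Some genes that meet the rule are not reported here.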

Additional observations from a re-analysis of the deposited data

Results flagged for a closer look

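The number of solute carrier genes with a peak moved in opposite directions under the compounds: it was higher than in control by 9 genes with TBP and by 15 with TCP, and the TIP list differed from control by −11 genes. This difference between compounds was not tested, since each rests on 1 library, and each count moved in the direction of its list's total length. With the same number of best-scored peaks from each list the counts were 43 in control, 43 with TBP, 36 with TCP and 41 with TIP.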

How the results depend on the processing

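No paired analysis was possible because each condition has 1 library and the labels give no replicate numbers. The 3′ UTR share stayed between 58.8% and 70.3% in every list under the alternatives that give it, which are all but the 50% overlap. Some intervals came to include the share over all peaks of the full list. At equal list length these were TBP (47.8 to 72.4, against 50.7%) and TCP (47.6 to 74.0, against 48.5%). At or above the median score they were TBP (49.5 to 72.8) and TCP (46.2 to 70.6). Naming the nearest gene, it was control (50.4 to 70.6, against 50.9%). The other intervals lay above that share. No all-peak share was taken under the alternatives. Taking the 3034 best-scored peaks per list gave 36 genes with TCP, 66 peaks with TBP and 57 with TCP, 9 genes gained with TBP and 7 with TCP, 14 lost with TCP and 13 with TIP, and 29 peaks (TBP) and 20 peaks (TCP) overlapping no control peak. Keeping peaks at or above the median score of their list gave 62 control peaks, 73 TBP, 68 TCP and 37 TIP peaks, 44 genes with TCP and 22 with TIP, 10 lost with TCP, 3 gained with TIP, and 37, 37 and 10 peaks overlapping no control peak with TBP, TCP and TIP. Naming the nearest gene gave 3 genes lost with TCP. Shares over all genes were not taken under the alternatives, so these counts have no background beside them. Leaving out peaks over 500 bp, requiring 50% overlap and, both added after seeing the data, using RefSeq spans or merging peaks within 100 bp moved no count by more than 1.5 times. Both score-based alternatives keep fewer peaks by construction, except that equal length leaves the TIP list whole; the cause of the change under the nearest gene was not tested. Unknown depth limits every absence of a peak.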
